A study of Ovis aries with 18 samples.

Results

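The let-7 family comprised 9 rows of the deposited miRNA tables, taken by row name. They were the 7 rows with a sheep name (oar-let-7a, oar-let-7b, oar-let-7c, oar-let-7d, oar-let-7f, oar-let-7g and oar-let-7i, called let-7a and so on) and 2 predicted loci, 14_9316 and X_35370, which are listed with the seed of bovine let-7f. These were 9 of the 495 rows of the vesicle table and 9 of the 761 rows of the endometrium table. No other row of either table matched a let-7, miR-98 or miR-202 name or seed. Rows can share a seed and be different miRNAs, so both predicted loci are called by their identifiers.

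MicroRNAs (miRNAs) are short RNAs that pair with target mRNAs, mainly through a few bases near their 5′ end called the seed, and lower the output of those targets. The let-7 miRNAs share a seed and are processed from hairpin precursors, a step that the RNA-binding protein LIN28 blocks in stem and embryonic cells. They are abundant in differentiated tissues, where their known targets include the growth genes HMGA2, MYC and the RAS genes. Several separate genes encode members whose mature forms are nearly the same, and in mammals some of these genes lie beside miR-99, miR-100 and miR-125 genes.

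Small RNA was sequenced from ovariectomized ewes (Ovis aries), which lack ovarian hormone and received progesterone (P4) by injection, with 5 ewes per treatment. In the P4+RU486 group, 50 mg of RU486 (mifepristone, an antagonist of the progesterone receptor) was added to the daily 50 mg of P4 on days 8 to 14, and in the P4 group the ewes had the 50 mg of P4 alone for all 14 days. Both groups therefore carried ovariectomy and P4, and the comparison addresses antagonism of the receptor rather than the presence of the hormone; breed and age are not given in the labels. Extracellular vesicles isolated from a flush of the uterine lumen gave 4 P4+RU486 libraries (R01 to R04) and 4 P4 libraries (P01 to P04), and dissected endometrium, a tissue of epithelium, stroma, vessels and blood cells, gave 5 libraries per treatment.

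The vesicle values are normalized CPM, reads scaled as counts per 1e6 of a library size that the authors adjusted. Recovered reads in listed rows numbered 101186 to 328453 in the P4+RU486 libraries and 97202 to 1062646 in the P4 libraries. The shallowest were P01, P04 and R04. Even there the rarest let-7 rows rested on 90 reads (X_35370 in P01) and 94 reads (let-7d in P01), and let-7f on at least 6432 reads. The family was therefore far above the floor of 3.30 to 31.3 normalized CPM that 3 reads give, a limit that covers counting error only.

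Small RNA tables hold no protein marker of vesicles, so that label could not be checked, and only miRNAs typical of cells were looked up. Rows with the name or seed of 3 of 5 epithelial miRNAs (the miR-200 family) held 0.992% to 1.56% of the reads in P4+RU486 and 0.932% to 2.59% in P4, with the highest share in P03. Leukocyte rows (4 of 5 miRNAs matched) held 0.216% to 0.495% in P4+RU486 and 0.215% to 1.94% in P4, with the highest share in P01. The erythroid row (1 of 3 matched) held 0.175% to 0.553% in P4+RU486 and 0.0262% to 0.791% in P4. Smooth muscle rows (3 of 4 matched) held 0.992% to 1.45% in P4+RU486 and 1.07% to 1.73% in P4, and stromal rows (2 of 3) 0.0128% to 0.0604% in P4+RU486 and 0.00715% to 0.111% in P4. Liver or plasma rows (2 of 4) held 0.00988% to 0.0131% in P4+RU486 and 0.0143% to 0.0576% in P4. Those groups did not overlap, as was so for 10.0% of all 229 single rows tested. The shares rest on few reads in the P4+RU486 libraries, and R03 (0.0131%) and P02 (0.0143%) were close. The endothelial miR-126 matched no row. Every list was small beside the let-7 family, but such shares cannot tell vesicle content from carried-over cells. The part of these cells in the let-7 levels was not tested.

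In lumen vesicles of both treatments the let-7 family held a large part of the miRNA reads. let-7f ranked between 2 and 7 among all rows of a library, and let-7a between 3 and 6. Its 9 rows together took 17.8%, 22.8%, 21.4% and 29.1% of the reads in the P4+RU486 libraries R01 to R04, against 18.7%, 19.8%, 12.2% and 21.4% in the P4 libraries P01 to P04. R04 was the highest and P03 the lowest, and the remaining libraries of both groups overlapped. The mean difference was 4.76 percentage points, and it fell to 2.65 without R04 and to 2.80 without P03. From such shares, more vesicles of a given kind of cell and more let-7 per vesicle cannot be told apart.

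**Figure D1:**
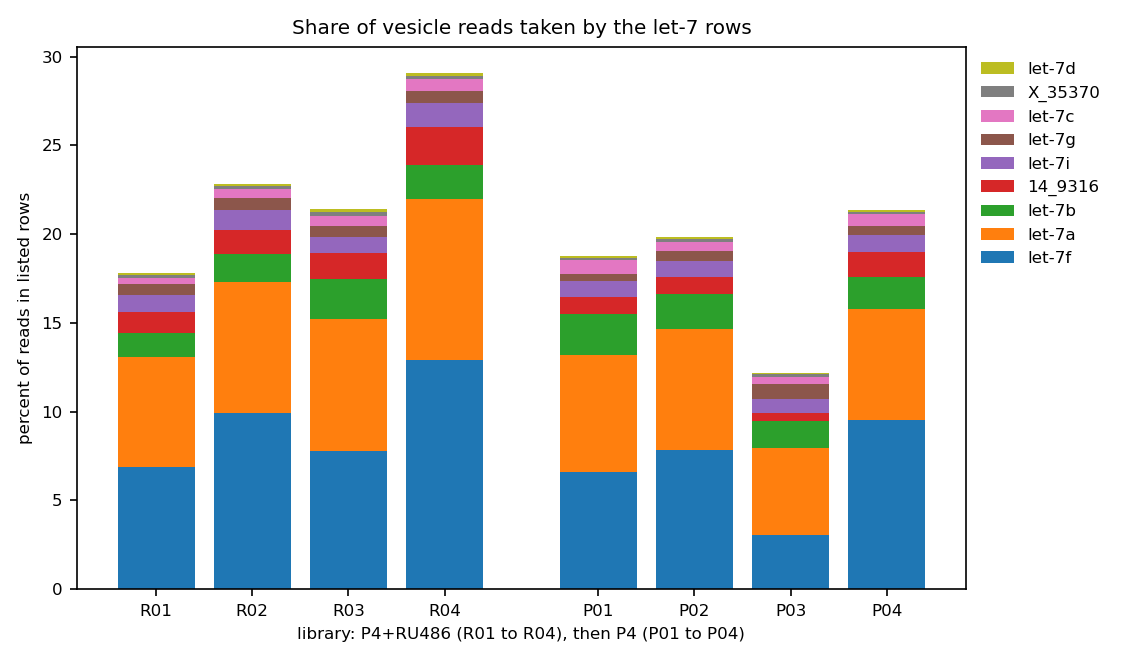
Share of the reads in listed rows (vertical axis, percent) taken by each let-7 row, stacked, in the 4 P4+RU486 vesicle libraries and the 4 P4 vesicle libraries. The stack reaches 29.1% in R04 and 12.2% in P03, and let-7f and let-7a make up most of it in every library.

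The order of levels within the family was nearly the same across libraries. let-7f averaged 80709 ± 30891 normalized CPM over all libraries (SD, n = 8) and let-7a 68624 ± 14159 (SD, n = 8). let-7f was above let-7a in 7 of 8 libraries, though their ranges over the libraries overlapped, and rows were not tested against each other. Together they made up 71.0% to 75.7% of the family's reads in P4+RU486 and 65.4% to 74.1% in P4. let-7b followed at 18262 ± 2690 (SD, n = 8), below let-7a in 8 of 8 libraries. Next came the predicted locus 14_9316 at 12472 ± 5110 (SD, n = 8), let-7i at 10029 ± 2204 (SD, n = 8) and let-7g at 6141 ± 1944 (SD, n = 8). let-7c averaged 5457 ± 1064 (SD, n = 8) and was not separated from let-7g, which was the higher of the pair in 5 of 8 libraries. X_35370 at 1712 ± 540.4 (SD, n = 8) and let-7d at 1136 ± 321 (SD, n = 8) were the rarest. These levels are compared without a length correction, since mature let-7 forms have about the same length. Reads of near-identical members can be split between rows by the counting, so the order of close neighbours is uncertain for that reason too.

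**Figure D2:**
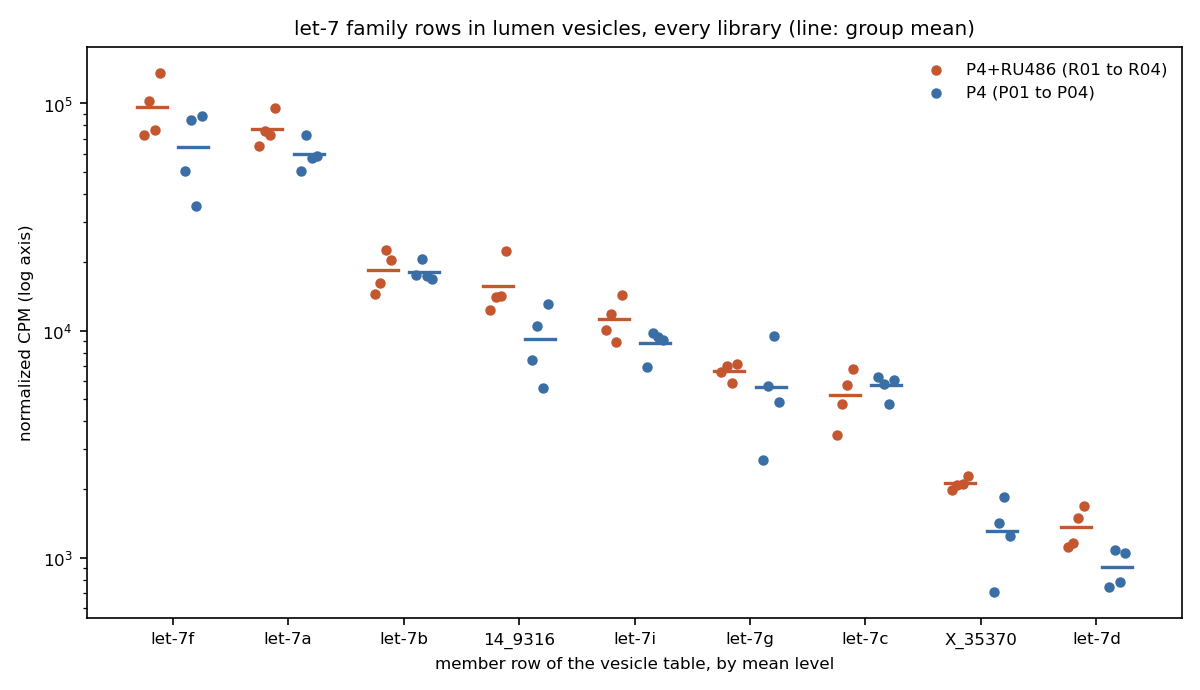
Normalized CPM (log axis) of each let-7 row in every vesicle library, with rows ordered by mean level; points are libraries and lines are group means (n = 4 each). The 4 P4+RU486 points of X_35370 and of let-7d lie above the 4 P4 points, and the groups of the other 7 rows overlap.

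In the comparison of treatments, most let-7 rows had higher estimates in P4+RU486, but none passed the test. Of the 9 rows, 8 had a higher fitted level in P4+RU486, where 118 of 229 rows tested (51.5%) did so. The 9 rows come from the same libraries, and 32 of their 36 pairs had r above 0, so they are not 9 separate results. The median log2 difference was 0.37 over the 9 rows and 0.04 over all 229. With limma on log2(normalized CPM + 1) and Benjamini-Hochberg adjustment over all 229 rows, 0 of 9 let-7 rows had an adjusted p under 0.05, where 0.437% of all rows did. At an unadjusted p under 0.05, 2 of 9 passed (14_9316 and X_35370), both higher in P4+RU486, where 14.4% of all rows passed and 7.42% did so in that direction. That limma count was 0 of 9 without R04 (26 of all 229 rows) and 5 of 9 without P02 (31 of all 230 rows). At an adjusted p under 0.05, edgeR and DESeq2 on the recovered reads also called 0 of 9, where they called 0.437% and 2.18% of all rows. The groups did not overlap for 2 of the 9 rows, both with P4+RU486 above P4, where 10.0% of all rows stood apart and 4.80% did so in that direction.

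**Figure D3:**
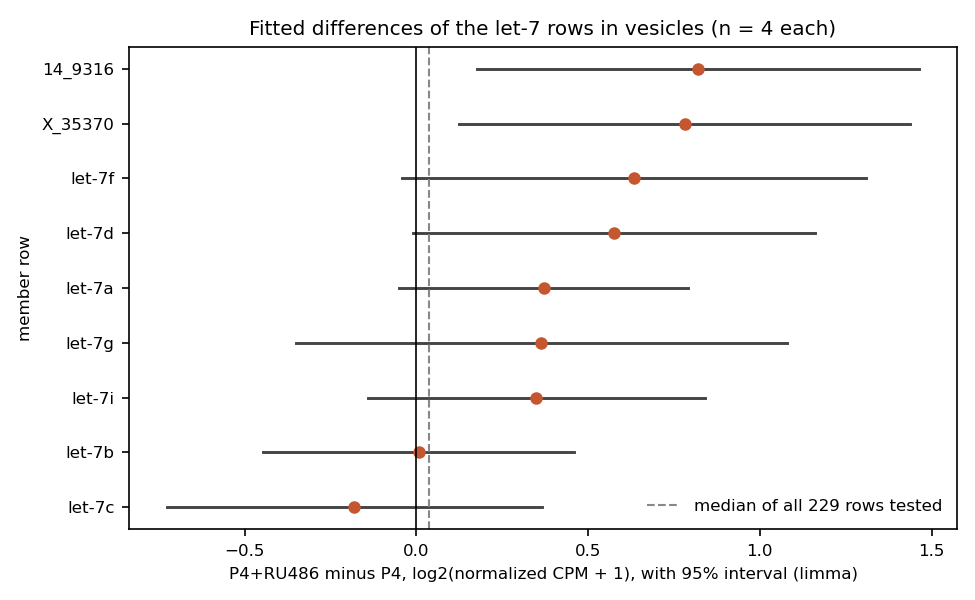
Fitted log2 difference, P4+RU486 minus P4, of each let-7 row in vesicles (points) with its 95% interval (lines), from limma with n = 4 each; the dashed line is the median of all 229 rows tested. Estimates run from -0.18 for let-7c to 0.82 for 14_9316, and the intervals of 14_9316 and X_35370 do not include 0.

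The largest estimates belonged to the predicted loci. 14_9316 stood at 12335, 14105, 14244 and 22447 normalized CPM in R01 to R04, against 7385, 10525, 5589 and 13146 in P01 to P04. Only P04 of the P4 libraries reached into the P4+RU486 range. The log2 difference was 0.82 (SE 0.30, 95% interval 0.18 to 1.46, limma adjusted p = 0.285), or 1.77-fold. With P03 left out the difference of 14_9316 was 0.61, with R04 left out 0.64 and with P04 left out 1.02. X_35370 stood at 1988, 2098, 2109 and 2286 normalized CPM in R01 to R04, against 707, 1425, 1842 and 1240.2 in P01 to P04. All 4 P4+RU486 libraries lay within a narrow range above all 4 P4 libraries. Its log2 difference was 0.78 (SE 0.30, 95% interval 0.13 to 1.44, limma adjusted p = 0.285), or 1.72-fold. With P03 left out its difference was 0.97, with P01 left out 0.51, and without the 3 shallowest libraries 0.35.

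The family's most abundant row, let-7f, stood at 72352, 102086, 76471 and 136308 normalized CPM in R01 to R04, against 50535, 84161, 35308 and 88448 in P01 to P04. R04 was the highest and P03 the lowest, and P02 and P04 lay above 2 of the P4+RU486 libraries. The log2 difference was 0.63 (SE 0.31, 95% interval -0.04 to 1.31, limma adjusted p = 0.334), and 0.38 without P03. let-7a stood at 65279, 75760.3, 72799 and 95915 in R01 to R04, against 50291, 72887, 57582 and 58482 in P01 to P04. Its groups overlapped through P02 alone, and the difference was 0.37 (SE 0.19, limma adjusted p = 0.379), or 0.14 without the 3 shallowest libraries. let-7d, whose gene neighbours that of let-7a in the RefSeq gene table of the sheep assembly ARS-UI_Ramb_v3.0, was the other row whose groups stood apart. It stood at 1108, 1158, 1492 and 1681 in R01 to R04, against 739, 1078, 779 and 1049 in P01 to P04, so R01 and P02 differed by little. The difference was 0.58 (SE 0.27, 95% interval -0.01 to 1.16, limma adjusted p = 0.334).

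let-7i and let-7g had intermediate estimates. In the RefSeq table their genes, like those of let-7f and let-7b, have no listed miRNA gene within 10 kb. Each name matched 1 gene there, and genes that the RefSeq table does not list would not be seen. let-7i stood at 10062, 11823, 8889 and 14324 normalized CPM in R01 to R04, against 6938, 9797, 9353 and 9044 in P01 to P04. R03 lay below 3 of the P4 libraries. The difference was 0.35 (SE 0.23, limma adjusted p = 0.517), and it was 0.23 without R04 and 0.09 without the 3 shallowest libraries. let-7g stood at 6543, 6982, 5853 and 7131 in R01 to R04, against 2695, 5680.0, 9414 and 4827 in P01 to P04. The P4+RU486 libraries were close together, and the P4 libraries held both the lowest and the highest value. Its difference of 0.36 (SE 0.33, limma adjusted p = 0.704) was 0.05 without P01, 0.65 without P03 and -0.18 without the 3 shallowest libraries, so its size rests on P01 and P03. P01 was the library with the highest share of leukocyte rows and P03 that with the highest share of epithelial rows, and their part in the result was not tested.

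let-7b and let-7c had the lowest estimates of the family. let-7b stood at 14530, 16124.5, 22526 and 20463 normalized CPM in R01 to R04, against 17576, 20666, 17419 and 16791 in P01 to P04. Its P4+RU486 libraries lay on both sides of the P4 libraries. The difference was 0.01 (SE 0.21, 95% interval -0.45 to 0.46, limma adjusted p = 0.990), and it was below 0 under library totals (-0.08) and median-of-ratios factors (-0.02). let-7c stood at 3450.3, 4759, 5762 and 6755 in R01 to R04, against 6262, 5845, 4767 and 6058 in P01 to P04. It was the only row with a negative estimate in that fit, at -0.18 (SE 0.25, 95% interval -0.73 to 0.36, limma adjusted p = 0.814), and it was close to 0 without R01 (-0.00038) and -0.32 without R04.

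The mix of members within the family also varied between libraries, and as a share of the family's own reads it does not depend on the scaling of the table. let-7c made up 1.84%, 2.03%, 2.74% and 2.20% of the family's reads in R01 to R04, against 4.38%, 2.76%, 3.36% and 3.04% in P01 to P04. The groups did not overlap, though R03 and P02 were almost equal. They did overlap for the share of every other member, and for the level of let-7c itself. Levels stood apart for 10.0% of all 229 rows, and how often such shares do was not computed. let-7b made up 8.00% ± 1.88 (SD, n = 4) of the family in P4+RU486 and 10.7% ± 1.91 (SD, n = 4) in P4, with overlapping groups. let-7f made up 40.7% ± 3.84 (SD, n = 4) in P4+RU486 and 36.1% ± 8.35 (SD, n = 4) in P4, and let-7a 33.2% ± 1.78 (SD, n = 4) in P4+RU486 and 34.9% ± 4.57 (SD, n = 4) in P4. Both differences lay within the spread of the P4 libraries. 14_9316 made up 6.67% ± 0.537 (SD, n = 4) in P4+RU486 and 5.17% ± 1.10 (SD, n = 4) in P4, overlapping through P04. The shares of a library sum to the whole, so a higher share of a common member lowers the others, and these values are a description without a test.

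P03 had a mix of its own among the P4 libraries. let-7f made up 24.9% of the family's reads there, against 35.3% to 44.4% in the other P4 libraries, and let-7a 40.5%. In P03 let-7g made up 6.63% and let-7i 6.58%, while let-7g lay between 1.88% and 2.68% in the other P4 libraries. P03 was also the deepest library and the one with the highest share of epithelial rows. Whether depth or the source of the vesicles took part in that mix was not tested.

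The predicted loci followed different named members from library to library. The Pearson correlation of log2(normalized CPM + 1) over 8 libraries was 0.96 between 14_9316 and let-7f, the highest of 36 pairs of members, against a median of 0.49. For X_35370 the closest member was let-7g (r = 0.88), and it was only 0.40 with let-7f, the member whose seed name it carries. About the group means the same pairs gave 0.96, 0.97 and -0.03. All pairs share libraries and their scaling, so these values are a description. Per read of let-7f, 14_9316 had 0.170, 0.138, 0.186 and 0.165 reads in R01 to R04, against 0.146, 0.125, 0.158 and 0.149 in P01 to P04. That ratio varied 1.49-fold over the 8 libraries, where let-7f itself varied 3.86-fold. Per read of let-7g, X_35370 had 0.304, 0.300, 0.360 and 0.321 reads in R01 to R04, against 0.262, 0.251, 0.196 and 0.257 in P01 to P04. All P4+RU486 ratios lay above all P4 ratios there, a pair chosen after its values were seen, so no test is given. Whether counting splits reads of 1 mature form between such rows was not tested.

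**Figure D4:**
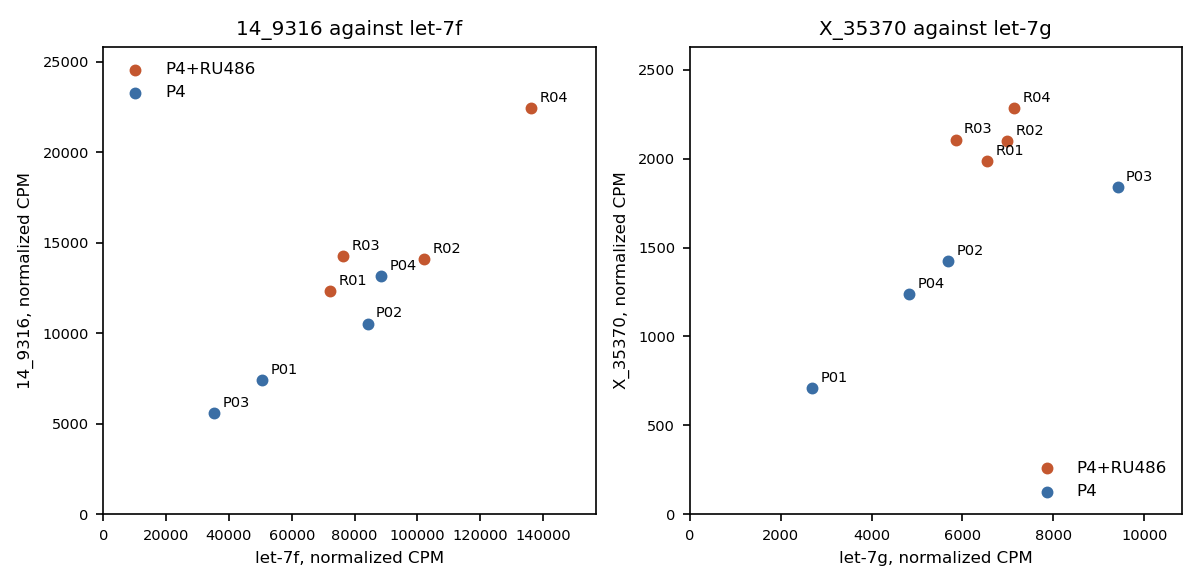
Normalized CPM of the predicted loci (vertical axes) against named members (horizontal axes) in the 4 P4+RU486 and 4 P4 vesicle libraries: 14_9316 against let-7f on the left and X_35370 against let-7g on the right. On the left all libraries lie near 1 line (r = 0.96), and on the right the P4+RU486 libraries lie above the line of the P4 libraries.

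The second highest correlation was between let-7d and 14_9316 (r = 0.93), and the lowest were those of let-7c. let-7c had r = -0.41 with let-7g and -0.35 with X_35370, and its closest member was let-7b (r = 0.71). let-7a correlated most with let-7d (r = 0.90) and let-7i (r = 0.89). In the RefSeq table let-7a and let-7d are neighbours and let-7i is not beside them. Of the 36 pairs, 32 had r above 0.

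Among the miRNAs encoded beside let-7 genes in mammals (miR-99a, miR-99b, miR-100, miR-125a and miR-125b), 3 rows matched by name or seed. With limma, 1 of 3 passed, miR-99a, which was lower in P4+RU486 (log2 difference -1.40, limma adjusted p = 0.0225), where 0.437% of all rows were called. On the recovered reads miR-99a was also called with edgeR (adjusted p = 0.0157) and DESeq2 (adjusted p = 7.75e-07), where these called 0.437% and 2.18% of all rows. The limma call was lost without R01, R03, R04 or P04 (limma adjusted p = 0.117, 0.120, 0.115 and 0.0751) and without the 3 shallowest libraries (0.105). Over these the estimate of miR-99a stayed between -1.43 and -1.29. In the authors' deposited table for vesicles the adjusted p of miR-99a is 0.81. In the RefSeq table the let-7c gene neighbours that of miR-99a. There were 5.71, 6.85, 11.2 and 12.9 reads of let-7c per read of miR-99a in R01 to R04, against 3.56, 4.00, 3.21 and 4.15 in P01 to P04. The groups of this ratio did not overlap, since miR-99a was lower in P4+RU486 while let-7c was at -0.18 (SE 0.25). The groups of miR-99a alone stood apart, at 516 to 695 normalized CPM in P4+RU486 and 1460 to 1760 in P4. The ratio is therefore not a separate result. miR-125b, whose log2 difference was -0.84 (limma adjusted p = 0.285), and 15_10953, with the seed of miR-99a, at -0.01 (limma adjusted p = 0.990), did not pass.

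Outside the family, 115 rows with a mean of at least 100 normalized CPM were compared with the sum of the 9 let-7 rows over the 8 libraries. The highest Pearson r were 0.70 for 2_17478, with the miR-128 seed, 0.69 for 20_18845, with the miR-877 seed, and 0.65 for 14_9680, with the miR-328 seed. X_35732, with the miR-450b seed, and X_36364, with the miR-421 seed, had r of 0.60 and 0.59. The lowest r were -0.95 and -0.94 for X_35730 and X_35728, both with the miR-450a seed and nearly the same values, and -0.94 for miR-125b. miR-125b, the most abundant of these 3, was thus low where the let-7 sum was high. Over all 115 rows the median r was -0.035. The family took up to 29.1% of a library, so a higher share of let-7 lowers the shares of other rows. The r were taken on normalized CPM rather than shares, and the part of this in the negative r was not tested.

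In the authors' deposited table for vesicles, where a negative fold is higher in P4+RU486, 8 of 9 let-7 rows had a negative fold, against 48.3% of all 495 rows. These folds rest on the same vesicle libraries as the limma fit, so they are not a separate result. The folds in the authors' deposited table ran from -1.72 for 14_9316 to 1.11 for let-7c, and 0 of 9 had an adjusted p under 0.05, where 1.82% of all rows did. let-7g had the lowest adjusted p of the family there (0.11), at a fold of only -1.23. It ranked 11 of 495 by that p, while let-7f, with a fold of -1.50 in the authors' deposited table, was given an adjusted p of 1.

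In the endometrium, only the authors' deposited folds and adjusted p-values were used for the let-7 rows, and the numerator of those folds is not named. All 9 rows had the same sign, negative, against 397 of 761 rows (52.2%) in that table. The 9 rows share the endometrium libraries, so they are not 9 separate results. In the authors' deposited table the fold sizes ran from 1.08 to 1.79, with a median of 1.32 over the 9 rows and 1.25 over all rows. None had an adjusted p under 0.05, where 1.18% of all rows did. X_35370 had the largest fold of the family in the authors' deposited table (-1.79, adjusted p = 0.288), followed by let-7g and let-7i (-1.50 each, adjusted p = 0.545 and 0.531). let-7f was at -1.43 (adjusted p = 0.524), let-7c at -1.32, let-7a and let-7b at -1.21 each and let-7d at -1.20 in the same deposited table. 14_9316 had the smallest fold of the family, -1.08 (adjusted p = 0.985).

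The order of the members thus differed between the deposited tables. 14_9316 was first by fold size in vesicles (-1.72) and last in endometrium (-1.08) in the authors' deposited tables. let-7c was positive in vesicles (1.11) and of the shared sign in endometrium (-1.32). X_35370 was among the largest in both, at -1.60 in vesicles and -1.79 in endometrium in the authors' deposited tables. Since the endometrium numerator is not named, whether the signs mean the same treatment in both is not known, and the difference between vesicles and tissue was not tested. Every ewe that gave a vesicle library also gave endometrium, so the tables are not independent.

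**Figure D5:**
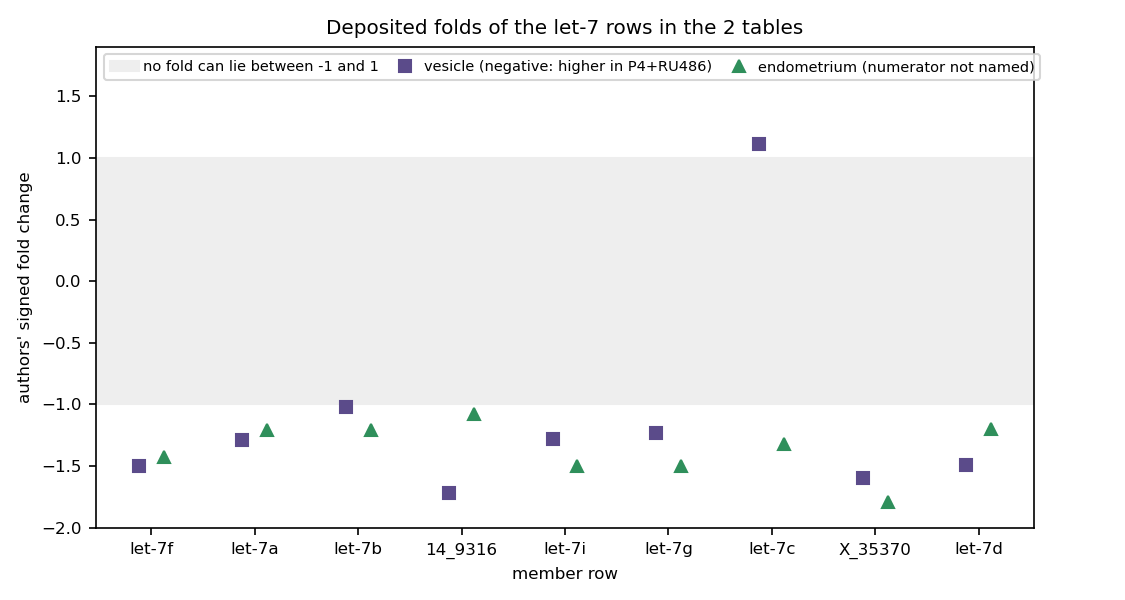
The authors' signed fold change (vertical axis, with no values possible in the grey band) of each let-7 row in the vesicle table (squares) and in the endometrium table (triangles). All 9 endometrium folds are negative, from -1.79 to -1.08, and the vesicle folds run from -1.72 to 1.11, with let-7c the only positive one.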

How the data were processed

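Small RNA libraries were sequenced from lumen vesicles (4 per treatment) and endometrium (5 per treatment). Adapters were trimmed with cutadapt 1.11 and edgeR was used with genome build Oar_v3.1, per the submitters' processing notes. The aligner and the miRNA predictor are not stated there. For vesicles the authors deposited a normalized signal: each library's reads as CPM after TMM adjustment, judged from its values. Dividing a column by its smallest step gave whole reads for 100% of its values (within 0.1 read), so reads were recovered, and TMM factors from them matched the deposited scaling within 1.98e-06. The deposited fold is a signed score of the authors, a fold under 1 being written as minus its inverse, and the deposited FDR is the authors' adjusted p-value. In vesicles a positive fold is higher in P4: its sign was that of the group means in 199 of 229 rows.

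The vesicle columns were given to treatments by the first letter of their names (P for P4, R for RU486). They do not name the ewe. The 10 endometrium columns of library values match no label and were not used, so tissue levels are not analysed here. The design assumed counts or normalized values. For the latter it named limma (3.58.1, trend, R 4.3.3) on log2(value + 1). Rows needed a mean of 10 or more, which all 9 members had, and p-values were adjusted over all 229 rows at a threshold of 0.05. The scale of all differences is log2(value + 1), and a positive one is higher in P4+RU486. Alternatives were pseudocounts 0.5 and 5, filters of 0 and 50, library totals, median-of-ratios factors, edgeR 4.0.16 and DESeq2 1.42.0 on recovered reads, and each library left out. The limma fit was tested on simulated data. A let-7 row that did not pass was not thereby shown to be unchanged. A depth covariate and leaving out the 3 shallowest libraries were added after seeing the data. Named rows were the 9 members, other rows of the family, the genes beside let-7 genes, and the 5 rows with the highest and 3 with the lowest r with the family sum. Members and lists were chosen with earlier results of these data known. Names were matched to the synonyms of RefSeq miRNA genes for 7 of 9 members, and neighbours were miRNA genes within 10 kb. Coordinates are not given, since the build differs.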

Additional observations from a re-analysis of the deposited data

Results flagged for a closer look

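Of 38 sets of 4 libraries looked at (levels, family share and shares within the family, per treatment), 2 held a library that Dixon's ratio (its gap to the nearest other, over the whole range) set apart at the 95% level, where chance gives about 1 in 20. Both were P03 among the P4 libraries. let-7g made up 6.63% of the family's reads there (ratio 0.832), and let-7i 6.58% (ratio 0.851). In P03 let-7f was the lowest of all libraries, at 35308 normalized CPM, so shares of other members are higher there by construction, while the level of let-7g, 9414 normalized CPM, was also the highest of all libraries.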

How the results depend on the processing

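No let-7 row passed the adjusted threshold under any of 18 alternatives. The lowest adjusted p of the family ranged from 0.0884 to 0.484 over them (limma, edgeR or DESeq2), and 152 of 162 member estimates had the sign of the reported fit. Rows called over the whole table numbered 1 in the reported limma fit, 5 with DESeq2, 6 with depth as a covariate (added after seeing the data) and from 0 to 2 with 1 library left out. The number of let-7 rows higher in P4+RU486 was 7 to 8 with 1 library left out, 7 under library totals and 6 without the 3 shallowest libraries, and their median ranged from 0.14 to 0.50 over the alternatives. let-7b turned sign under library totals (-0.079), median-of-ratios factors (-0.018), DESeq2 (-0.00041) and without the 3 shallowest libraries (-0.12), and ranged from -0.10 to 0.11 with 1 library left out. let-7g was -0.18 without the 3 shallowest libraries. The cause was not tested. The family's share difference ranged from 2.65 to 6.42 percentage points with 1 library left out.

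No paired analysis was possible because the treatments were given to different ewes and the vesicle columns do not name the ewe. Alternatives for endometrium libraries and the comparison of the family's mix between vesicles and endometrium were not run, since those columns match no label. The median SE over all rows was 0.51 on the log2 scale, and 0.19 to 0.33 for let-7 rows.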

Other observations

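R04, of the P4+RU486 group, had the highest normalized CPM of 7 of the 9 let-7 rows, and P01, of the P4 group, the lowest of 5. R04 and P01 were 2 of the 3 shallowest libraries. P01 also had the largest scaling factor of the table, 1.31, against 0.856 to 1.07 in the other P4 libraries. By normalized CPM the family sum of P01 (143127) was close to that of P03 (142052), but by share of reads P01 (18.7%) was close to P02 (19.8%), and P03 stood alone at 12.2%. Under library totals the median log2 difference of the 9 rows was 0.29, against 0.37 with the deposited scaling.

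Without the most abundant row of the vesicle table, the family took 31.9% ± 5.57 (SD, n = 4) of the remaining reads in P4+RU486 and 24.0% ± 4.45 (SD, n = 4) in P4. Groups overlapped through R01 and P04.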
